A study of Mus musculus with 4 samples.

Results

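Type A intercalated cells are the acid-secreting cells of the collecting duct. They were taken here as nuclei with at least 1 UMI (a unique molecular identifier, which counts an RNA molecule once) in 2 or more of 6 genes, *Atp6v1g3*, *Atp6v0d2*, *Clnk*, *Foxi1*, *Slc4a1* and *Kit*, and with 0 UMIs of the type B genes *Slc26a4*, *Slc4a9* and *Insrr*. This rule found 221 of 27343 kept nuclei. The nuclei came from kidney tissue enriched for medulla of 4 male mice, all 12 weeks old and all carrying loxP-flanked *Tfap2a* alleles on both chromosomes. Of these, 2 were Cre-negative littermate controls and 2 were *Hoxb7Cre+;Tfap2a fl/fl* knockouts, in which Cre acts in the ureteric lineage that forms the collecting duct. A middle kidney slice, its cortex trimmed to enrich the medulla, was stored frozen, and proximal tubule nuclei remained common. Each mouse gave 1 library of the 10x 3' assay, so that mouse and library cannot be told apart. The number of type A nuclei was 71 and 51 in control mice 1 and 2, and 60 and 39 in knockout mice 1 and 2. The members were thus chosen by their own measured UMIs of these 9 genes, so the levels that set them apart from other nuclei are given as a description, and only knockout against control was tested.

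Intercalated cells lie scattered among the principal cells of the collecting duct and regulate acid-base balance. The type A cell pumps protons into the urine through an apical H+ ATPase and returns bicarbonate to the blood through the basolateral anion exchanger AE1, which *Slc4a1* encodes. Type B cells work in the opposite direction and carry pendrin, encoded by *Slc26a4*, on their apical side. The forkhead factor *Foxi1* is required for intercalated cells and for the expression of H+ ATPase subunits, and *Tfap2a* encodes an AP-2 transcription factor of the collecting duct.

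The promoters of 3 genes of the type A program are shown because they hold a core of the forkhead or the AP-2 motif. The sequences are from RefSeq, build GRCm38.p6, run 5′ to 3′ over the 250 bases before the annotated start, and have the forkhead core TGTTTAC or the AP-2 core GCCNNNGGC in capitals.

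*Atp6v1b1* promoter, chr6:83742767-83743016, plus strand: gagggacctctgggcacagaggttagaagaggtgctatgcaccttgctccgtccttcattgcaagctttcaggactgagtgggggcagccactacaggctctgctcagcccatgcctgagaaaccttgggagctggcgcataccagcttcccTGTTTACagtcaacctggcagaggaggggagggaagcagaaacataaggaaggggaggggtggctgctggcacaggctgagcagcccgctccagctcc
*Foxi1* promoter, chr11:34208090-34208339, minus strand: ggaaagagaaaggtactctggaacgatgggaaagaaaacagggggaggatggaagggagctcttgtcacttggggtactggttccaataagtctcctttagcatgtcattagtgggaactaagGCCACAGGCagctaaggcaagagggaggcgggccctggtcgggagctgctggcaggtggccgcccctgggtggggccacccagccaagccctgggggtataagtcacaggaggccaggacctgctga
*Kit* promoter, chr5:75574737-75574986, plus strand: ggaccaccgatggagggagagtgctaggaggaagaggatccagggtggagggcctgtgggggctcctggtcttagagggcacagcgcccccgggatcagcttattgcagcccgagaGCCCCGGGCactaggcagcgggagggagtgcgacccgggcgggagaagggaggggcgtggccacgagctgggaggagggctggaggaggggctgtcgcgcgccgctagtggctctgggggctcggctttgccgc

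The windows searched ran from 250 bases before to 50 bases after the start, on both strands. A window was found for 24 of 32 genes, which were the 6 rule genes, 12 further intercalated genes and the 20 genes highest in members, less their overlap. The AP-2 core, which reads the same on both strands, was present for 7 of the 24 genes and in 16.6% of all 32851 windows. Besides *Foxi1* and *Kit*, these were *Tfcp2l1*, *Dmrt2*, *Rhcg*, *Fgf12* and *Negr1*. The forkhead core was present for 2 of the 24 genes, *Atp6v1b1* at base -98 and *S100g* at base -47 from the start, and in 3.65% of all windows. A gene was counted with a match in any of its windows, and some genes had several. The counts by gene and the shares by window are therefore unlike measures. In *Kit* the AP-2 core began at base -134, and in *Foxi1* at base -127 with another at base 37, beyond the printed stretch. A match is a run of letters and not a measured binding site.

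The libraries held 22179410 to 44964099 UMIs, and 5430 to 7998 nuclei per mouse were kept. Between 7 and 18 kept barcodes were shared by any pair of libraries. Values are listed below in the order control 1, control 2, knockout 1, knockout 2. Summed members had 195191, 193054, 177745 and 101721 UMIs, with a median per nucleus of 2161, 3241, 2207.5 and 2168. Levels are given as CPM, the UMIs of a gene over all UMIs of the summed nuclei, scaled to a common total. The 3' assay does not read the deleted part of *Tfap2a*, so its counts do not check the genotype.

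Among the 6 rule genes, the H+ ATPase subunit *Atp6v1g3* had a UMI in 88.7% of members and *Atp6v0d2*, a further subunit, in 68.3%. *Slc4a1* was found in 57.0%, *Kit*, a receptor tyrosine kinase, in 43.4%, the adaptor gene *Clnk* in 42.1% and *Foxi1* in 32.1%. In proximal tubule nuclei, which should lack these RNAs, the shares ran from 0.600% for *Foxi1* to 5.33% for *Atp6v1g3*, at a median of 3058 UMIs against 2337 UMIs in members. Of the 221 nuclei, 101 held exactly 2 rule genes, 28 held 3, 31 held 4, 43 held 5 and 18 held all 6. Just outside the threshold, 1630 nuclei held 1 rule gene and none of the 3 type B genes.

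The nuclei were split by the number of rule genes they held, which itself sets the share with each of these genes. In the 120 nuclei with 3 or more rule genes, *Slc4a1* had a UMI in 78.3% and *Kit* in 64.2%, whereas in the 101 nuclei with exactly 2 the shares were 31.7% and 18.8%. *Slc4a1* stood at 690.4, 545.4, 714.7 and 737.8 CPM in the former. The latter most often paired *Atp6v1g3* with *Atp6v0d2*, in 31 of 101, or with *Slc4a1*, in 23 of 101. Genes outside the rule were not used in the split. The summed level of 12 intercalated genes was 9981, 7831, 8682 and 9850 CPM with 3 or more rule genes, against 2398, 1818, 2159 and 2657 CPM with exactly 2 and 871.7 to 1011 CPM in all other nuclei. All mice thus showed the same order of the 3 sets of nuclei, with no overlap.

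Markers of other tubule segments were strong in the 2-gene nuclei. Their summed level of 5 distal convoluted tubule markers was 20000, 12590, 15900 and 12670 CPM, above that of all other nuclei (1843 to 3109 CPM). *Slc8a1* alone, the sodium-calcium exchanger of the distal tubule, had 4687 of their 361588 UMIs, in 43 of the 101 nuclei, and so made up most of this sum. A UMI in 3 or more markers of another class was present in 90.1% of the 2-gene nuclei and in 37.5% of those with 3 or more. Over all members this was 136 of 221 nuclei, or 40, 36, 48 and 12 per mouse. Endothelial markers summed to 0 to 124.6 CPM in the 3-gene nuclei, and all 5 interstitial markers were at 0 there. Principal cell genes were present in both sets. Their 8 markers summed to 4861, 5753, 2901 and 970.8 CPM in the 3-gene nuclei and to 6458, 8824, 4363 and 3883 CPM in the 2-gene nuclei, against 588.7 to 1458 CPM in all other nuclei. Of these, 8 of 8 were at least 2-fold above other nuclei in both control mice in the 3-gene nuclei too, with a median log2 ratio of 2.31. Intercalated genes thus stood high in the 3-gene nuclei, beside principal cell genes, while the 2-gene nuclei had lower levels of them. There the distal convoluted tubule list had the highest sum, mostly through *Slc8a1*. Each result below is given for all members, with the 3-gene nuclei beside it where they differ.

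**Figure D1:**
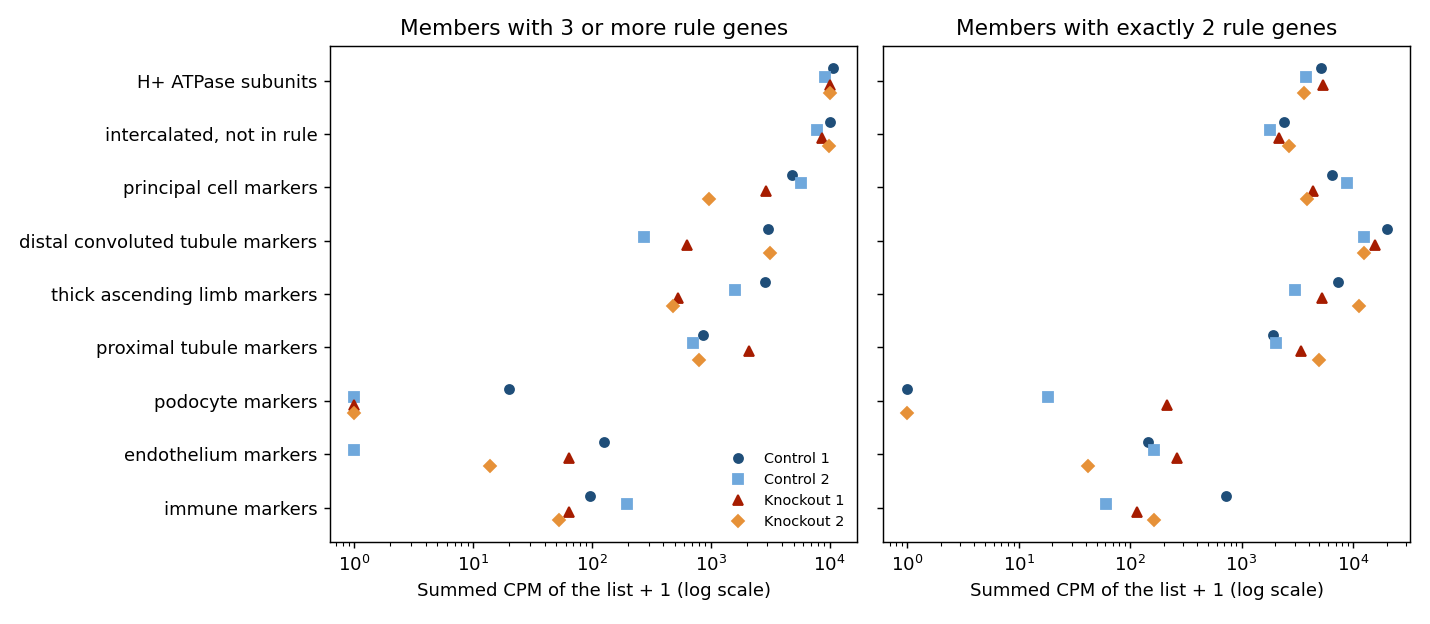
Summed level of each marker list (CPM + 1, log scale) in members with 3 or more rule genes (left) and with exactly 2 (right), 1 point per mouse. On the left the intercalated list outside the rule is at 7831 CPM or more and the H+ ATPase list, 2 of whose 22 genes are in the rule, at 9117 CPM or more (7013 CPM or more over the 20 others), while distal convoluted tubule markers lead on the right at 12590 CPM or more. Most UMIs of the distal convoluted tubule list on the right are of *Slc8a1*.

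The rule also left out nuclei that held type A genes. *Slc4a9* encodes the bicarbonate transporter AE4, and 269 nuclei (46, 101, 55 and 67 per mouse) met the 2-gene threshold, had a *Slc4a9* UMI and had none of *Slc26a4* or *Insrr*. In these, which the rule genes themselves helped to choose, *Slc4a1* had a UMI in 74.3%, *Kit* in 79.9% and *Clnk* in 82.5%. Of them, 257 held 3 or more rule genes, and there the shares were 77.4%, 82.1% and 85.6%, against 78.3%, 64.2% and 70.8% in the 3-gene members. In 264 *Slc26a4*-positive intercalated nuclei, *Slc4a1* was present in 2.27% and *Kit* in 21.2%. *Aqp6*, an intracellular channel protein of type A cells, separated the kinds of nuclei. It stood at 1438, 909.1, 924.9 and 1230 CPM in the 3-gene members, at 956.8, 1065, 962.2 and 1047 CPM in the *Slc4a9*-positive nuclei, and at 14.38, 30.5, 15.52 and 32.87 CPM in the *Slc26a4*-positive nuclei. The adhesion receptor gene *Adgrf5* did so too, with 1640 to 2084 CPM in the 3-gene members, 1916 to 2729 CPM in the *Slc4a9*-positive nuclei and 39.56 to 219.1 CPM in the *Slc26a4*-positive ones. A wider set without the *Slc4a9* criterion, chosen after these values were seen, held 490 nuclei (117, 152, 115 and 106 per mouse) and is given as an alternative.

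**Figure D2:**
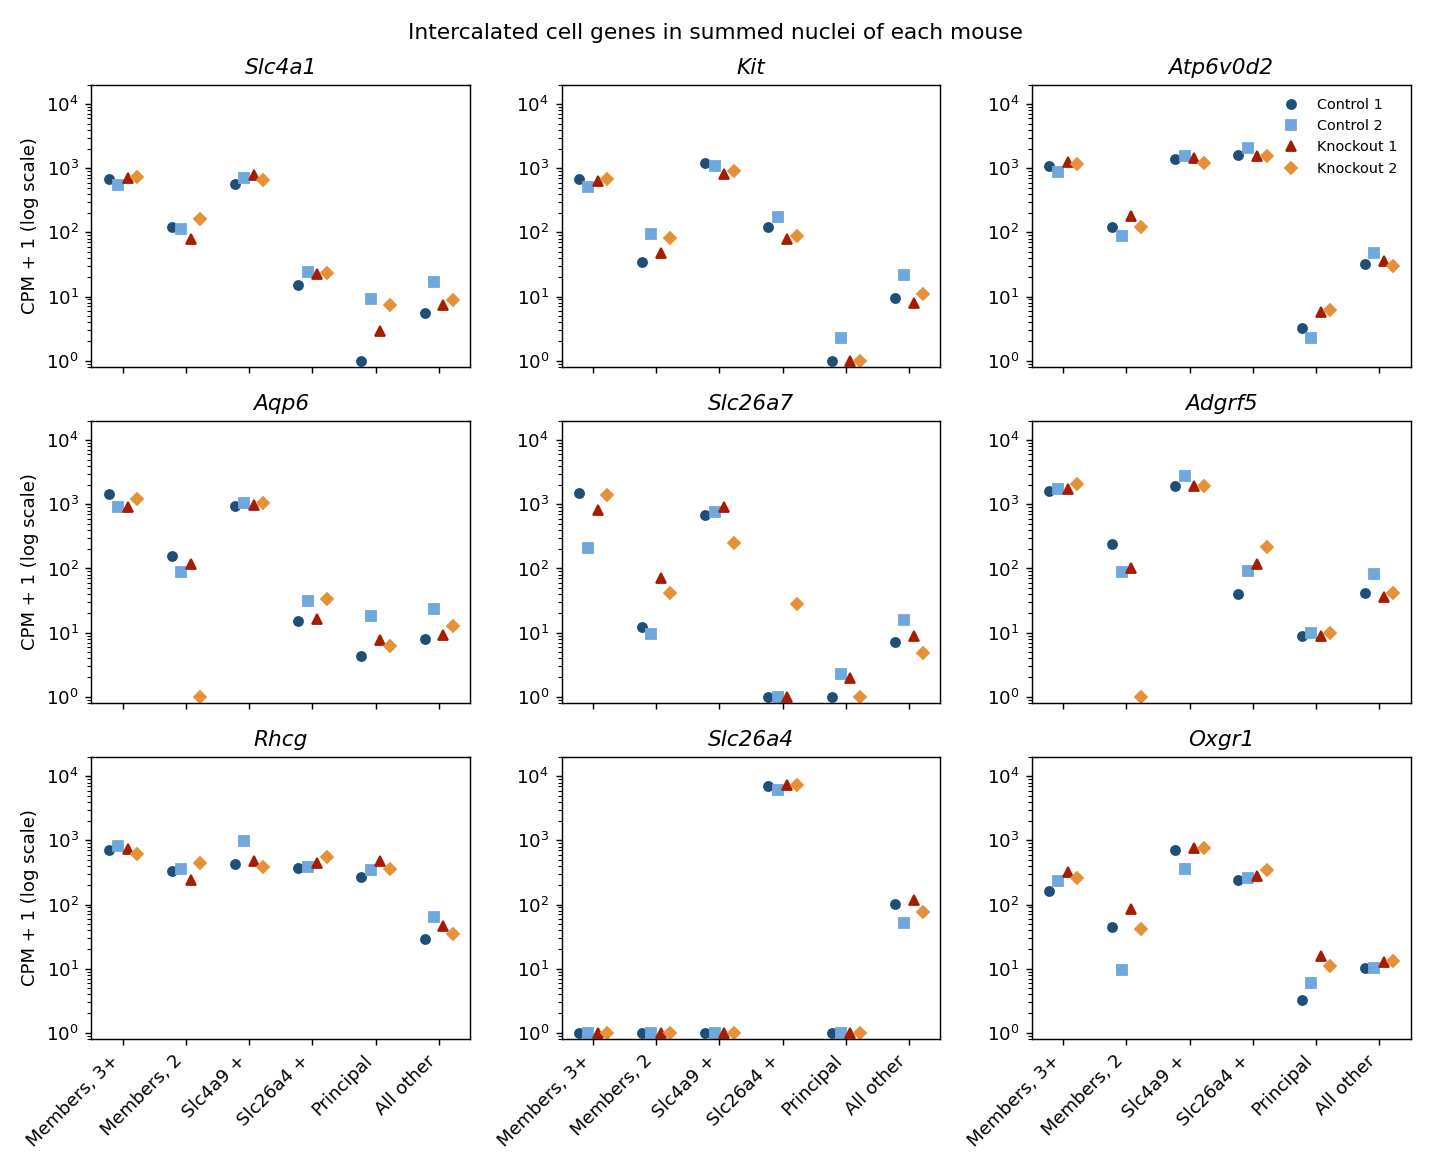
Levels of 9 genes (CPM + 1, log scale) in summed nuclei of each mouse, by kind of nuclei: members with 3 or more and with exactly 2 rule genes, *Slc4a9*-positive and *Slc26a4*-positive intercalated nuclei, principal-type nuclei and all other nuclei. *Aqp6* and *Adgrf5* are as high in the *Slc4a9*-positive nuclei as in the 3-gene members and lower elsewhere.

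Outside the rule, the genes with the largest ratio of the mean level in members to that in other nuclei of the control mice were *Aqp6* (42.5-fold) and *Slc26a7* (42.3-fold), a basolateral anion exchanger of the medullary type A cell. *Aqp6* in members stood at 840.2, 414.4, 331.9 and 933.9 CPM, and in other nuclei at 7.03 to 22.5 CPM. *Slc26a7* varied more between mice, at 794.1, 88.06, 270.0 and 1091 CPM. Control mouse 2 was thus the lowest for *Slc26a7* and control mouse 1 and knockout mouse 2 the highest, so the genotypes overlapped. The ammonia transporters *Rhbg* and *Rhcg*, through which intercalated cells excrete ammonia, were 17.9-fold and 11.7-fold higher than in other nuclei. *Rhcg* was even among members, at 532.8, 533.5, 371.3 and 570.2 CPM. Further genes on this list were the protease inhibitor *Serpinb9* (26.7-fold), the nuclear receptor *Rorb* (17.7-fold), the membrane skeleton gene *Epb41l2* (14.7-fold), *Adgrf5* (14.2-fold), *Fgf12* (14.1-fold), *Negr1* (13.5-fold), *Wscd2* (10.6-fold), the H+ ATPase subunit *Atp6v1b1* (9.78-fold) and *Susd1* (9.52-fold). Not all of them set members apart from *Slc26a4*-positive nuclei. *Rorb* stood at 194.7, 243.5, 67.51 and 88.48 CPM in members and at 553.8, 510.9, 524.6 and 509.5 CPM there. *Wscd2* stood at 230.5, 233.1, 106.9 and 265.4 CPM in members and at 237.3, 335.5, 208 and 361.6 CPM there. *Serpinb9* stood at 625, 202, 230.7 and 589.8 CPM in members and at 154.6, 213.5, 332.1 and 175.3 CPM there. *Rhcg* (437.6 against 371.3 CPM) and *Susd1* (155.2 against 135 CPM) were higher there in knockout mouse 1 and lower in the other mice. *Rhcg* was also at 267.2 to 474.6 CPM in principal-type nuclei. *Epb41l2*, *Fgf12* and *Negr1* were lower in the *Slc26a4*-positive nuclei than in members in each mouse.

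The other 7 of the 20 genes are known from neighbouring cells. *Hsd11b2*, *Scnn1b*, *Scnn1g* and *Aqp3*, genes of principal cells, were 10.7, 9.31, 8.82 and 8.86-fold higher in members than elsewhere. *S100g*, *Clu* and *Klk1* were 12.2, 10.3 and 9.28-fold higher, and 5 nuclei held 52.9%, 67.7% and 77.4% of their UMIs among members. *Klk1* stood at 143.8 and 207.8 CPM in the 3-gene members of control mice 1 and 2, against 4170 and 646.3 CPM in the 2-gene members. *Rorb* too was uneven, with 58.5% of its UMIs in 5 nuclei.

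H+ ATPase subunits acidify the urine in these cells. Among 18 subunit genes outside the rule with at least 10 UMIs, 9 were at least 2-fold above other nuclei in both control mice, where 6.99% of all 7364 genes were. They were *Atp6v1b1*, *Atp6v1c2*, *Atp6v1a*, *Atp6v1d*, *Atp6v1e1*, *Atp6v1f*, *Atp6v0b*, *Atp6v0d1* and *Atp6ap2*. The median log2 ratio of the 18 was 1.17, and that of all genes 0.21. In the 3-gene members 12 of 16 were above that limit, as were 10.9% of all genes, and in the wider set 6.71% of all genes were. The ubiquitous subunits *Atp6v0a2*, *Atp6v1b2* and *Atp6v1c1* were below other nuclei, at ratios of 0.564, 0.679 and 0.668, whereas *Atp6v1b1* and *Atp6v1c2*, the kidney isoforms of the B and C subunits, were 9.78-fold and 8.63-fold above. *Slc26a4*-positive nuclei had more of both. *Atp6v1b1* was at 366.8, 396.5, 468.7 and 498.5 CPM there and at 235.7, 124.3, 196.9 and 314.6 CPM in members, and the 20 subunits outside the rule summed to 9925, 10240, 10830 and 8678 CPM against 6163, 4854, 5423 and 6429 CPM in members.

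Of 11 acid-base and ammonia transport genes, 6 were at least 2-fold above other nuclei in both control mice. Beside *Aqp6*, *Slc26a7*, *Rhbg* and *Rhcg*, the carbonic anhydrase gene *Car2* stood at 697 and 808 CPM in members of the control mice and 182 and 192 CPM elsewhere, and *Car12* at 1350 and 409 against 248 and 193 CPM. Of 9 transcription factor genes, 5 were above that limit, among them *Dmrt2* (36.1-fold) and *Tfcp2l1* (5.57-fold), which acts with *Foxi1* in intercalated cells. *Esrrg* was not, at a ratio of 1.15. Defensin *Defb1*, an antimicrobial peptide gene, was 7.38-fold above other nuclei. The respiratory chain was less marked, with 2 of 49 nuclear-encoded genes above that limit.

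Over the 12 intercalated genes outside the rule, the median log2 ratio was 3.42 in the control mice and 3.71 in the knockout mice. It was 1.48 in the 2-gene members and 4.15 in the 3-gene members of the control mice. Without control mouse 1 it was 2.58, with 10 of 12 genes higher than in other nuclei, and without control mouse 2 it was 4.06 with 12 of 12 higher.

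Whether the share of members differed between genotypes was asked first. A member need not be a type A cell, as 101 of the 221 held exactly 2 rule genes. Of these, 90.1% had a UMI in 3 or more markers of another class. Members made up 0.918% of kept nuclei in control mouse 1 (95% Wilson interval 0.728 to 1.16%) and 0.939% in control mouse 2 (0.715 to 1.23%). The knockout mice had 0.750% (0.583 to 0.964%) and 0.631% (0.462 to 0.862%). Both knockout mice were below both control mice, but the intervals, which cover counting error only, overlapped. The means were 0.928% ± 0.0153 (SD, n = 2) and 0.691% ± 0.0840 (SD, n = 2), a difference of -0.238 percentage points with p = 0.333 in a 2-sided exact permutation test, the smallest p that 2 against 2 mice allow. After each nucleus was thinned to 1000 UMIs the shares were 0.717%, 0.925%, 0.662% and 0.712%, again lower in both knockout mice. With at least 3 rule genes the shares overlapped, at 0.543%, 0.460%, 0.275% and 0.502%. They overlapped with exactly 2 as well, at 0.375%, 0.479%, 0.475% and 0.130%. In the wider set they were 1.51%, 2.80%, 1.44% and 1.72%, with control mouse 2 far above the rest. Its *Slc4a9*-positive nuclei made up 66.4% of that set, against 39.3%, 47.8% and 63.2% in control mouse 1 and the knockout mice. The share also depended on proximal tubule nuclei, which were 17510 of all kept nuclei. Among the other nuclei the shares were 2.12%, 1.33%, 1.54% and 1.37%, with the genotypes overlapping.

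**Figure D3:**
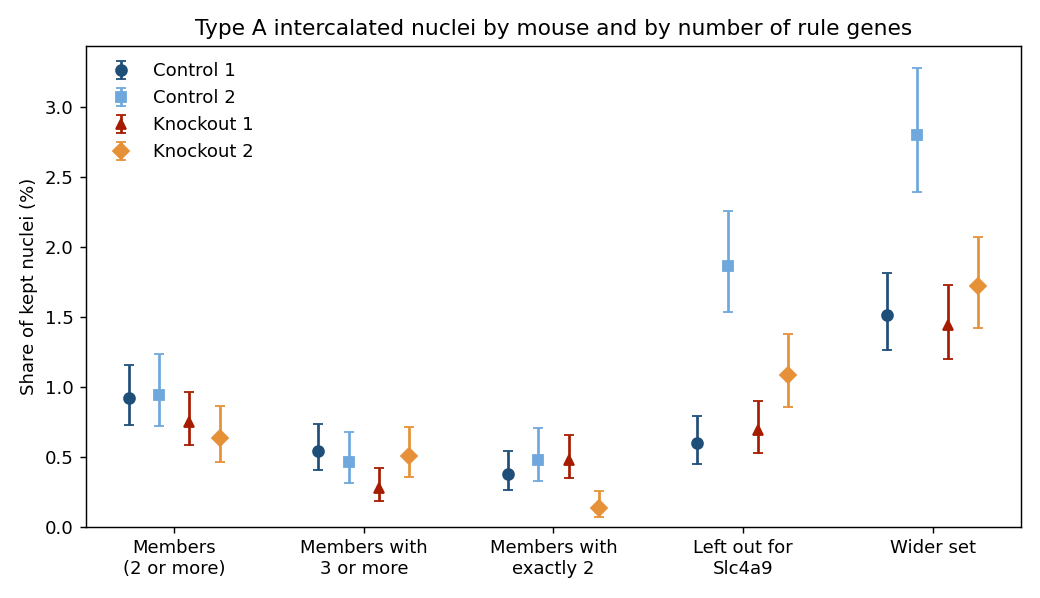
Share of kept nuclei (%) in each mouse by definition of the type A nuclei, with 95% Wilson intervals for counting error. Knockout mice are below control mice for all members, and overlap them under the other 4 definitions.

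Knockout and control were then compared gene by gene over the summed members. Of 9218 genes with at least 10 UMIs, 0 passed edgeR's quasi-likelihood test at an adjusted p under 0.05 (0%). At an unadjusted p under 0.05 there were 193 genes lower (2.09%) and 145 higher (1.57%) in the knockout mice, together 3.67% of those tested, and DESeq2 called 0 with 41 and 14 at that level. The genotypes did not overlap for 1607 genes with lower levels in the knockout (17.4%) and for 1289 with higher ones (14%). In the 3-gene members 1 of 6317 genes (0.0158%) passed, and 4.83% had an unadjusted p under 0.05, 2.53% lower and 2.3% higher. In the wider set 0 of 10949 passed in edgeR, and 3.19% had an unadjusted p under 0.05, 178 genes lower (1.63%) and 171 higher (1.56%). The genes named next are therefore values with the lowest p and are not called changed. In simulated counts this test recovered 0% of genes changed by a log2 of 1, 22.7% at 2 and 62.7% at 3. Not passing thus does not show that a gene was unchanged.

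The 12 intercalated genes outside the rule went both ways, 6 down and 6 up in value, and their median log2 fold change was 0.11 where that of all genes was -0.01. Their sum was 6450, 4216, 3904 and 8120 CPM, with the knockout mice on either side of the controls. *Slc26a7* had a log2 fold change of 0.57 ± 0.82 (SE), *Dmrt2* of -0.56 ± 0.58 (SE) and *Rhbg* of 0.45 ± 0.39 (SE). *Aqp6* differed by a log2 of -0.03, *Rhcg* by -0.20, *Tfcp2l1* by -0.17, *Adgrf5* by 0.25 and *Atp6v1b1* by 0.47. *Slc4a1* in members was at 425.2, 284.9, 247.5 and 599.7 CPM, *Kit* at 374.0, 264.2, 202.5 and 540.7 CPM and *Foxi1* at 133.2, 145.0, 67.51 and 206.4 CPM, so that the genotypes overlapped for each of these rule genes. In all of them knockout mouse 1 was lowest and knockout mouse 2 highest. In the 3-gene members *Slc4a1* differed less between mice, and knockout mouse 1 (714.7 CPM) was not the lowest there.

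Among 18 tested H+ ATPase genes outside the rule, 7 were lower and 11 higher, with a median log2 fold change of 0.15. *Atp6v0d1* was at 169, 176, 107 and 68.8 CPM, a log2 fold change of -0.92 ± 0.42 (SE, edgeR, adjusted p = 0.999). It was the single subunit of the 18 with an unadjusted p under 0.05, where 2.09% of all genes were lower at that p. The 3-gene members had 2 such subunits, *Atp6v0d1* and *Atp6ap2* (2.53% of all genes), and the wider set had 0. Of the acid-base and ammonia genes 8 were lower and 4 higher (median -0.11). There, *Slc4a7*, a sodium-bicarbonate cotransporter gene, was lower by a log2 of -2.28 ± 0.82 (SE) and stood at 56.4, 51.8, 16.9 and 0 CPM. It was also lower in all other nuclei, at 55.1, 71.9, 29.2 and 37.8 CPM. Transcription factor genes were 7 lower and 2 higher (median -0.17), and *Foxp1*, at 451, 446, 546 and 1140 CPM, was one of the latter with a log2 fold change of 0.88 ± 0.49 (SE).

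*Tfap2a* in members was at 92.2, 93.2, 56.3 and 49.1 CPM, from 18, 18, 10 and 5 UMIs. Both knockout mice were below both controls, with a log2 fold change of -0.79 ± 0.48 (SE, edgeR, adjusted p = 0.999). In the 3-gene members, at 76.7, 129.9, 105.1 and 51.8 CPM, the genotypes overlapped. Its level in members of the control mice was 5.93-fold that in other nuclei. The related *Tfap2b* was at 97.3, 62.2, 135.0 and 88.5 CPM in members and also overlapped. *Alcam*, a cell adhesion gene, was at 840.2, 419.6, 652.6 and 1602 CPM, with knockout mouse 2 apart from the others. In the 3-gene members it was at 1362, 870.1, 2102 and 2110 CPM, both knockout mice above both controls, with a log2 fold change of 0.91 ± 0.41 (SE, edgeR, adjusted p = 0.985). In the wider set *Alcam* overlapped between genotypes, at 1194, 1322, 1029 and 1878 CPM. *Wnt9b*, a Wnt ligand of the collecting duct, rested on 8, 5, 1 and 2 UMIs.

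Of the genes lower in the knockout members, *Ranbp3l*, which encodes a nuclear export factor for SMAD proteins, had the lowest p. It stood at 496.9 and 445.5 CPM in the control mice and 90.0 and 88.5 CPM in the knockout animals, with a log2 fold change of -2.39 ± 0.43 (SE, edgeR, adjusted p = 0.999). It came from 70 members, with 26.4% of its UMIs in 5 of them. Principal-type nuclei were lower as well, at 879.8, 821.3, 239.7 and 286.5 CPM, as were all other nuclei at 447.3, 509.5, 203.7 and 204.1 CPM. In each of these sets of nuclei both knockout mice were thus below both controls, none of them past the adjusted threshold, and the difference of change from principal-type nuclei was -0.68 ± 0.40 (SE, edgeR, adjusted p = 0.998).

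Next came *Btc*, encoding the EGF-family ligand betacellulin, at 230.5, 243.5, 61.9 and 59.0 CPM, and *Camkk2*, a calcium-dependent kinase gene, at 189.6, 155.4, 39.4 and 39.3 CPM. Their log2 fold changes were -1.95 ± 0.42 and -2.11 ± 0.47 (SE). *Btc* in the 3-gene members had 16 UMIs in each control mouse and 0 in each knockout mouse (edgeR adjusted p = 0.0553). In principal-type nuclei neither separated the genotypes, with *Btc* at 179.3, 358.1, 175.0 and 245.9 CPM. *Apela*, a peptide hormone gene, was at 292.0, 450.7, 101.3 and 98.3 CPM, and *Sbspon* rested on 18, 20, 3 and 0 UMIs.

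Of those higher in the knockout members, *Hmgcll1*, an enzyme gene of ketone body synthesis, had 0, 1, 7 and 12 UMIs over 17 nuclei. *Slco1a6*, an organic anion transporter gene, was at 71.7, 129.5, 320.7 and 275.3 CPM, and *Pck1*, of gluconeogenesis, at 56.4, 103.6, 343.2 and 196.6 CPM. Both are proximal tubule genes. *Nat8f6*, of an acetyltransferase family, had 1, 2, 11 and 5 UMIs. In all other nuclei *Pck1* was at 318.1, 268.5, 595.8 and 592.5 CPM and *Nat8f6* at 43.1, 30.9, 136.2 and 191.1 CPM, higher in both knockout mice too. *Tenm4* had 1, 1, 30 and 1 UMIs, with 90.9% of them in 5 nuclei, and so rested on knockout mouse 1.

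**Figure D4:**
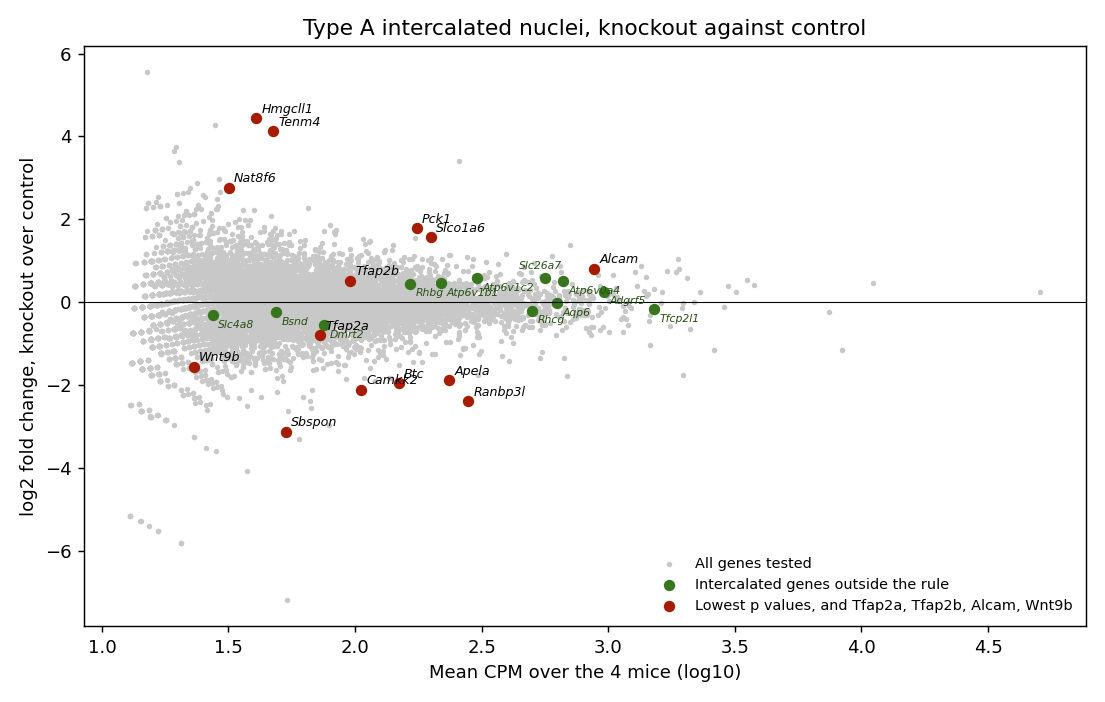
Log2 fold change, knockout over control, against the mean level (CPM, log10) for the 9218 genes tested in members, none of which passed at an adjusted p under 0.05. Intercalated genes outside the rule lie on both sides of 0, from -0.56 for *Dmrt2* to 0.58 for *Atp6v1c2*, and named genes are marked.

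Within the members, some lists of marker genes of other cells went 1 way in the knockout mice, but 0 of the 9218 genes passed the adjusted test. The 8 principal cell markers were all lower, with a median log2 fold change of -0.76 (-1.38 in the 3-gene members). For 3 of them, *Aqp2*, *Fxyd4* and *Avpr2*, edgeR's unadjusted p was under 0.05, where 2.09% of all genes were lower at that p. The 3-gene members had 4 such markers, against 2.53% of all genes. The summed level of the 8 was 5605, 7599, 3972 and 1671 CPM in members and 11250, 11120, 9927 and 9693 CPM in principal-type nuclei, which were chosen by genes of this list. In all other nuclei 7 of the 8 were lower too (median -0.40), whereas principal-type nuclei had 4 lower and 4 higher (median -0.02). All 8 proximal tubule markers were higher, with a median of 1.03 and sums of 1342, 1513, 3089 and 1789 CPM. Among these, *Slc34a1*, *Cubn* and *Slc5a12* had an unadjusted p under 0.05 in edgeR, where 1.57% of all genes were higher at that p. In all other nuclei the 8 were higher as well (median 0.34). The free RNA outside nuclei held 6699 to 7949 CPM of these, so that the members' level was 18.2%, 22.6%, 38.9% and 24.1% of it. Thick ascending limb markers were 3 lower and 3 higher over all members (median -0.15). In principal-type nuclei 5 of 6 were lower (median -0.93), and in all other nuclei 6 of 6 (median -0.18). In the 3-gene members all 5 tested were lower (median -2.18). *Egf*, made by that segment and the distal tubule, was the 1 gene that passed there, with 76, 26, 0 and 4 UMIs and a log2 fold change of -4.03 ± 0.68 (SE, edgeR, adjusted p = 0.0268). Over all members *Egf* did not separate the genotypes, at 1312, 569.8, 1148 and 1111 CPM. The part of these markers in the values of the genes named above was not tested.

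Over all 9218 genes 4662 were lower and 4555 higher, and the lists below are read against that split. Of 27 Wnt signaling genes 19 were lower and 8 higher (median -0.32), and 2 of them, *Lef1* and *Tcf7l1*, which act downstream of β-catenin, were lower at an unadjusted p under 0.05, where 2.09% of all genes were. The 3-gene members had 12 lower and 7 higher (median -0.13), with 0 below that p in edgeR, and in the wider set the median was -0.06. Outside the members, 21 of 33 Wnt genes were lower in principal-type nuclei (median -0.20) and 30 of 41 in all other nuclei (median -0.14). Of the Notch and cell fate genes 11 of 13 were lower (median -0.42), including *Notch2* at 66.6, 98.4, 22.5 and 9.83 CPM and the principal cell factor *Elf5* at 56.4, 98.4, 11.2 and 39.3 CPM. Among these genes 9 of 10 were lower in the 3-gene members (median -0.28), and in the wider set 12 of 14 (median -0.17). Principal-type nuclei had 6 of them lower and 9 higher (median 0.12), and all other nuclei 12 lower and 7 higher (median -0.15). Cell adhesion and junction genes were 16 lower and 8 higher (median -0.33), but 11 lower and 10 higher (median -0.06) in the 3-gene members. In all other nuclei 23 of 25 of them were lower (median -0.30), and in principal-type nuclei 20 of 25 (median -0.20). Nuclear-encoded respiratory chain genes were 14 lower and 35 higher (median 0.12), which turned to 36 lower and 13 higher (median -0.22) in the 3-gene members. They were 11 lower and 38 higher in principal-type nuclei (median 0.13), and 7 lower and 42 higher in all other nuclei (median 0.14). Of receptor genes 2 were lower and 6 higher (median 0.21), and 5 were lower and 5 higher in the wider set. In principal-type nuclei 7 were lower and 3 higher (median -0.03), and in all other nuclei 8 lower and 4 higher (median -0.08). None of these genes passed the test over all genes.

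Whether type A nuclei changed differently from the principal-type nuclei of the same mice was tested as an interaction over 9168 genes. With edgeR 0 genes (0%) passed, and 229 had a lower and 170 a higher difference at an unadjusted p under 0.05 (4.35%). *Egfem1* came nearest. It was at 604.5, 476.6, 247.5 and 186.8 CPM in members and at 1029, 430.9, 996.6 and 2315 CPM in principal-type nuclei, a difference of -2.41 ± 0.44 (SE, edgeR, adjusted p = 0.0765). It was present in 21 members, with 59.0% of its UMIs in 5, and the 3-gene members had 345.2, 13.0, 0 and 168.3 CPM. The next lower ones were *Cuta* (-4.48), *4930599N23Rik* (-2.46), *Apela* (-1.58) and *Prom1* (-2.89). On the other side, among the lowest p, were *Cdkn1c* (8.18), *Egf* (2.01), *Slc12a3* (3.44) and *Nupr1* (1.46). *Cdkn1c* lay in 2 members, and *Slc12a3*, the distal tubule cotransporter gene, had 165 of its UMIs in knockout mouse 1. In the wider set 2 of 10833 genes (0.0185%) passed this test, *Egfem1* and *Cdkn1c*, and 4.72% had an unadjusted p under 0.05.

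Against all other nuclei, 0 of 9218 genes (0%) passed in edgeR, with 116 lower and 172 higher at an unadjusted p under 0.05 (3.12%; 3.4% in the wider set, where edgeR called 0 as well). *Egfem1* (-2.08) and *Cuta* (-4.06) were again lower, with *Rnf186* (-1.95), *4930599N23Rik* (-2.04) and *Rorb* (-1.60). *Rorb* in the 3-gene members was at 364.4, 610.4, 168.2 and 116.5 CPM, below both controls in both knockout mice. In the wider set it was at 345.4, 402.7, 348.6 and 512.9 CPM, and the genotypes overlapped. Among the higher differences with the lowest p were *Nupr1* (1.90), *Hmgcll1* (5.19), *Grm7* (2.67) and *Tenm4* (4.31). *Nupr1*, a stress-response gene, was at 266.4, 88.1, 343.2 and 186.8 CPM in members and at 265.8, 138.5, 114.4 and 57.1 CPM in all other nuclei.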

How the data were processed

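Single-nucleus RNA-seq of medulla-enriched kidney slices of 2 control and 2 knockout mice was analysed. The deposited files hold raw UMI counts per gene and barcode, which the authors made with Cell Ranger 3.0.2 and the mouse genome mm10, empty droplets included. The 10000 barcodes richest in UMIs were taken per library, and nuclei with 501 to 3999 genes and under 5% mitochondrial UMIs were kept. No doublet caller was run. Leaving out nuclei with a UMI in 3 or more markers of another class stood in for it. Principal-type nuclei had a UMI in at least 3 of *Aqp2*, *Aqp3*, *Fxyd4*, *Scnn1b*, *Scnn1g* and *Hsd11b2*, in under 2 rule genes and in none of the type B genes. Type A sums per mouse were tested with edgeR 4.0.16 (TMM, quasi-likelihood test, genes with at least 10 UMIs, Benjamini-Hochberg adjustment) on genotype, and in interactions with mouse as a term. The tests were tested on simulated data. Since 1 library was made per mouse, p-values on genotype rest on the spread between 2 mice per genotype, moderated over genes by edgeR. Those of the interactions rest on the spread left after the mouse term.

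The members, gene lists and tests were chosen with earlier results of these data known. The genes named are those of the rule and lists with a role in intercalated cells, up to 10 per direction that passed or else the 5 with the lowest p (5 for the differences of change), the 20 highest against other nuclei with at least 50 UMIs, and *Tfap2a*, *Tfap2b*, *Alcam* and *Wnt9b*. Alternatives were DESeq2 1.42.0, no TMM, other filters, a replicate block, 3 rule genes, under 1% mitochondrial UMIs, no mixed nuclei, free RNA subtracted (from barcodes under 100 UMIs), nuclei thinned to 1000 UMIs, other denominators and each mouse left out. Those without the *Slc4a9* criterion were chosen after seeing the data. A gene that this rule would name in the differences of change is not reported here.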

Additional observations from a re-analysis of the deposited data

Results flagged for a closer look

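In the wider set of 490 nuclei, formed without the *Slc4a9* criterion, the change differed from that in principal-type nuclei for 2 genes by the interaction test of edgeR. For *Cdkn1c*, a cell cycle inhibitor gene, the difference of the log2 fold changes was 8.13 ± 1.46 (SE, adjusted p = 0.0421). It rested on 1, 0, 20 and 0 UMIs in the wider set and 16, 3, 1 and 0 UMIs in principal-type nuclei, so knockout mouse 1 carried it. For *Egfem1* the difference was -2.26 ± 0.43 (SE, adjusted p = 0.0421), with 403.6, 201.4, 177.7 and 88.7 CPM in the wider set and 1029, 430.9, 996.6 and 2315 CPM in principal-type nuclei. Knockout mice were lower than controls in the former, while the genotypes overlapped in the latter.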

How the results depend on the processing

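In members the count of genes passing edgeR's test was 0 and became 1 with 3 rule genes (*Egf*), 3 under 1% mitochondrial UMIs, which left 5 nuclei of control mouse 1, and 0 to 5 with each mouse left out (5 without control mouse 1, 1 without control mouse 2). With the replicate number as a block it stayed 0 in members but was 55 in the wider set, 30 lower and 25 higher, against 0 there without the block. Same-numbered mice deviated together with a correlation of 0.256 in members, 0.553 in the wider set and 0.406 in all other nuclei. By label they share only a number, but both replicate 1 libraries were deeper (42138345 and 44964099 UMIs) than both replicate 2 libraries (24998797 and 22179410 UMIs). Their median mitochondrial share was higher too, at 1.66% and 1.05% against 0.671% and 0.417%. What else same-numbered mice share was not tested. With each mouse left out of the wider set the count was 0 to 11 (3 without control mouse 1, 6 without control mouse 2, 11 without knockout mouse 2). For the difference from principal-type nuclei it was 2 in the wider set, 6 with 3 rule genes and 0 to 10 with each mouse left out (6 without control mouse 1, 9 without control mouse 2, 10 without knockout mouse 1). For that from all other nuclei it was 2 to 26 (11, 2, 26 and 10 without control 1, control 2, knockout 1 and knockout 2). With 1 mouse in an arm, that mouse is assumed to vary like the others. The median log2 ratio of the 12 intercalated genes was 4.54 in the wider set, against 3.42. *Tfap2b* turned to -0.45 with 3 rule genes, and *Alcam* to -0.28 in the wider set without knockout mouse 2. *Ranbp3l* had log2 fold changes from -4.39 to -2.19 over 20 alternatives and the reported value, and passed in 3. With the block in the wider set 9 named genes passed, with adjusted p = 6.91e-11 for *Ranbp3l*, 0.000934 for *Btc*, 0.0344 for *Camkk2*, 0.00672 for *Apela*, 0.0474 for *Sbspon*, 0.0415 for *Hmgcll1*, 0.000934 for *Pck1*, 0.00439 for *Tenm4* and 0.000607 for *Slco1a6*. Without knockout mouse 2 the wider set called *Ranbp3l* (0.0375), *Pck1* (0.00098), *Tenm4* (0.000482), *Slco1a6* (0.0323) and *Nat8f6* (0.0427), and without control mouse 2 *Hmgcll1* (0.0178). Under 1% mitochondrial UMIs *Ranbp3l* (0.0215) and *Tenm4* (0.0423) passed. The lower share of type A nuclei kept its direction in every alternative tried. As a share of kept nuclei the difference ran from -0.0449 points without mixed nuclei to -0.579 points in the wider set, with exact permutation p of 0.333 to 1, and as a share of intercalated nuclei it was -4.82 points.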

Other observations

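The genes named here were chosen after their values were seen. *Arntl* and *Per1* were picked from a longer list of clock genes, whose other members are not given. *Arntl*, the core activator of the circadian clock, had 6, 12, 3 and 2 UMIs in members, and its log2 fold change was -1.87 ± 0.54 (SE) in the wider set, -1.36 ± 0.50 (SE) in principal-type nuclei and -1.22 ± 0.30 (SE) in nuclei outside the members, none of which passed in edgeR. *Per1*, a clock repressor, had 2, 2, 4 and 2 UMIs in members and a log2 fold change of 2.66 ± 0.71 (SE) in the wider set and 1.03 ± 0.36 (SE) in nuclei outside the members, again without passing. *Sgcz*, a sarcoglycan gene, was at 21, 7, 1 and 0 UMIs in members, and its log2 fold change was -4.39 ± 0.48 (SE) in nuclei outside the members, where it did not pass either.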
